A study of Mus musculus with 6 samples.

Results

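The genes described here are the chemokines and their receptors in mouse white adipose tissue, 48 of the 56980 genes listed in the deposited count matrices, of which 29 are ligands and 19 are receptors. They were chosen by symbol, from a list of family members, and not by their values. Single-nucleus RNA sequencing (snRNA-seq) of subcutaneous (inguinal) adipose tissue (SAT) and visceral (gonadal) adipose tissue (VAT) from female C57BL/6J mice gave 6 libraries in 3 groups of 2, SAT of young mice (2 months), SAT of old mice (24 months) and VAT of old mice. The age of the older mice is 24 months in the sample labels, which are followed here, and differs in the study's design text and methods. The mice were untreated wild-type animals, 2 per age, nothing ties libraries of the same replicate number to 1 mouse, and VAT at 2 months was not analysed here. With 2 libraries per group, p-values measure the spread between these libraries. The age comparison asks which members differ between SAT at 24 and at 2 months, and the depot comparison which differ between VAT and SAT at 24 months.

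Chemokines are small secreted proteins that guide cells along their concentration gradients. Their receptors span the membrane and signal through inhibitory G proteins, which turns binding into directed movement. The atypical receptors, whose symbols start with Ackr, bind chemokines without that signal and clear or transport them. In adipose tissue the family is known chiefly for bringing in and placing immune cells.

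The libraries held 6158 to 11341 barcodes and 8061862 to 16226690 unique molecular identifiers (UMIs, each counting 1 RNA molecule), and 2490 to 5776 nuclei per library were kept. The members took 36435 UMIs for ligands and 20964 for receptors. Each level below is in CPM, the usual scaling of a gene's UMIs to the total UMIs in the summed nuclei of a class and library, and a level is compared between classes or groups, not between genes. Every nucleus carries the label adipocytes, but the clusters held adipocytes, fibro-adipogenic progenitors (FAPs), endothelial, mesothelial, epithelial and muscle nuclei and many kinds of immune nuclei. Clusters were made without the 48 members, and were named from marker lists that hold none of them, so all class names below mean "like". Libraries stood apart in 3 ways that touch the results. The median mitochondrial share of UMIs in kept nuclei was 1.72% and 0.918% in young SAT, 3.49% and 2.91% in old SAT and 0.776% and 5.07% in VAT, and its part in the age differences was not tested. A list of 7 lymph node genes summed to 440 and 296 CPM in the young SAT libraries, 81.3 and 24.0 CPM in the old SAT libraries and 6.25 and 67.4 CPM in VAT. A list of 10 ovary and oviduct genes summed to 2718 CPM in VAT replicate 2 and to at most 47.2 CPM in the other libraries. VAT replicate 1 held 11 T cell nuclei of 4434, and VAT replicate 2 held 159 adipocyte nuclei of 5070. The share of kept barcodes that any pair of libraries had in common was at most 0.482% of the smaller library.

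Of the 48 members, 27 stood within 1 Mb of another member in 7 runs along GRCm39, the build of the files. The run chr9:123507181-123913594 held Ccr9, Cxcr6, Xcr1, Ccr1, Ccr3 and Ccr2, and the runs chr11:81926397-82007625 and chr11:83416602-83555509 held 5 ligands each. Neighbours on chromosome 9 differed in where they were highest. Ccr9 was highest in plasmacytoid dendritic cell nuclei, Cxcr6 in T cell nuclei, Xcr1 and Ccr2 in conventional dendritic cell nuclei and Ccr1 in macrophage nuclei. Another gene overlapped 23 of the members, 5 of them on the same strand, and how the counting shared such reads is not given in the sources used here.

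The promoters of Cxcr6 and Ccr6 are shown because both receptors, which lie on different chromosomes, rose with age in T cell nuclei and their RefSeq and GENCODE starts lie within 10 bases of each other. Ccr2 rose too, but 238 of the 250 bases of its window lie inside the gene as GENCODE draws it, so it is not printed, and it holds neither motif. The windows are the 250 bases up to the start that RefSeq gives, on the + strand, at chr9:123635292-123635541 and chr17:8454625-8454874, each with 1 exact match in GRCm39. The last 8 and the last 6 bases lie inside the gene as GENCODE draws it. Capitals mark a match to the RUNX core TGTGGT, here as its other strand ACCACA, in Cxcr6, and a match to the ROR half-site AGGTCA, here as TGACCT, in Ccr6.
Cxcr6: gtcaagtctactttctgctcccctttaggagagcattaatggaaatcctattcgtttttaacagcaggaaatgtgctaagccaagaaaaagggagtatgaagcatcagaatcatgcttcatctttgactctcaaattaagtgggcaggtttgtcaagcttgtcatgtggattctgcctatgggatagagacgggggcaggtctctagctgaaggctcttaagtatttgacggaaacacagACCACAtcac
Ccr6: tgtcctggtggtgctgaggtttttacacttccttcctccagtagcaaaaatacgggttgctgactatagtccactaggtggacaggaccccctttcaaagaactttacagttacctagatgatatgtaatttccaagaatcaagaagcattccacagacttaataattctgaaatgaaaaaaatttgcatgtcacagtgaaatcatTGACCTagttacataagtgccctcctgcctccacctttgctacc
Both strands were searched over 32851 promoter windows of this length. The RUNX core was in 14.05% of them and in 9 of the 39 windows of members, and the ROR half-site was in 14.02% and in 12 of 39. RefSeq windows were at hand for 37 of the 48 members, and a match is a string of letters, not a bound site.

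Across the classes, 44 members had at least 50 UMIs and are described with the class in which their mean CPM over libraries was highest. Ccl20 and Cxcl5 had 7 and 11 UMIs in all, and Ccr8 and Ccr3 had 31 and 36. Macrophage nuclei were the class of highest level for 8 ligands, and mature dendritic cell, FAP and NK cell nuclei for 4 each, while the 17 receptors were spread over 9 classes. These levels are a description with no test. NK cell and plasmacytoid dendritic cell means rest on the 2 SAT 2 months libraries alone, and are set beside means over libraries of both ages and depots. A class needed 2 libraries for a mean, so leaving out either of these libraries removed both classes from the ranking. The highest mean of Ccl3, Ccl4, Ccl28, Xcl1, Cxcr3 and Ccr9 then lay in another class by construction.

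Mature dendritic cells, which carry antigen to lymph nodes, held the highest levels of Ccl17 and Ccl22, the ligands of Ccr4. Ccl22 stood at 672 ± 385 CPM (SD, n = 5 libraries), with 92.2% of its UMIs in this class, and Ccl17 at 38.4 ± 28.8 CPM with 89.5%. Ccl5, a ligand of Ccr1 and Ccr3, was at 1187 ± 521 CPM, and NK cell nuclei followed with 569 ± 224 CPM (n = 2). Cxcl16, the membrane-bound ligand of Cxcr6, was at 757 ± 208 CPM against 132 ± 51.1 CPM in conventional dendritic cell nuclei. Ccr7, the receptor that leads cells to lymph nodes, was at 880 ± 233 CPM against 109 ± 120 CPM in T cell nuclei. All 5 libraries with at least 20 such nuclei had these 5 genes highest in this class.

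Macrophage nuclei carried the monocyte-attracting and related CC ligands. Ccl6 was at 815 ± 501 CPM and Ccl9 at 527 ± 215 CPM (n = 6 libraries), and the next class, conventional dendritic cells, was at 62.5 ± 67.0 and 50.6 ± 53.5 CPM. Ccl8 was at 178 ± 115 CPM, and Ccl24, a ligand of the eosinophil receptor Ccr3, at 66.7 ± 73.0 CPM. Each of these 4 ligands was highest in macrophages in all 6 libraries. Ccl2, the main ligand of Ccr2, was at 67.2 ± 69.9 CPM in macrophages and 30.8 ± 18.1 CPM in FAPs, a gap within the spread between libraries. Ccl12 and Cxcl2 were lower, at 22.9 ± 21.5 and 15.8 ± 22.4 CPM. Of the receptors, Ccr1 was highest here, at 62.2 ± 37.9 CPM. Cx3cr1, the receptor of Cx3cl1, was at 140 ± 92.6 CPM, which its level of 131 ± 84.1 CPM in conventional dendritic cells matched within the spread. Cxcr2, a receptor of neutrophils, was at 10.2 ± 14.7 CPM on 53 UMIs in all.

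FAPs, the fibroblast-like cells that give rise to adipocytes, led for Ccl11, Ccl7, Cxcl13 and Cxcl14 among the ligands and for Ackr3 among the receptors. Ccl11, the eosinophil attractant, was at 337 ± 281 CPM in FAPs and 19.3 ± 20.4 CPM in endothelial nuclei, the next class. Ccl7 did not separate the classes, with 54.5 ± 42.2 CPM in FAPs and 53.3 ± 37.5 CPM in macrophages. Ackr3, which takes up Cxcl12 and Cxcl11, was at 457 ± 318 CPM in FAPs and 78.1 ± 57.9 CPM in mesothelial nuclei. Within FAPs it was at 1175 ± 670 CPM in the Dpp4 progenitor sub-cluster (n = 5 libraries), with 1040.2, 1451, 1761 and 1551 CPM in the 2 SAT 2 months libraries, SAT 24 months replicate 2 and VAT replicate 1, and 71.0 CPM in VAT replicate 2. VAT replicate 2 stood apart, and its FAP nuclei also held the lowest FAP marker sum, 5093 CPM against 13735 to 30392 CPM in the other 5 libraries, and the highest mesothelial marker sum, 1614 CPM against at most 211 CPM.

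Endothelial nuclei led for Cxcl12, which holds leukocytes and progenitors in place through Cxcr4, for Cxcl10, a ligand of Cxcr3, and for the clearing receptors Ackr1, Ackr2 and Ackr4. Cxcl12 was at 319 ± 181 CPM in endothelial nuclei and 277 ± 183 CPM in FAPs, levels that did not differ beyond their spread. Blood vascular endothelial nuclei held Cxcl12 at 387 ± 274 CPM (n = 5), and lymphatic endothelial nuclei held it at 30.8 ± 32.3 CPM (n = 3). For Ackr3 the order of these sub-clusters was the reverse, 49.8 ± 19.4 against 141 ± 137 CPM. Ackr1, Ackr2 and Ackr4 stood at 39.7 ± 31.8, 45.5 ± 62.0 and 33.2 ± 64.5 CPM in endothelial nuclei, each with FAPs next and within its spread.

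Cx3cl1 had its highest mean, 110 ± 107 CPM, in the class named mesothelial after the lining of the body cavity, with epithelial nuclei at 86.4 ± 40.5 CPM. It was higher in every SAT library of that class, at 123 and 78.7 CPM at 2 months and 156 and 289 CPM at 24 months, against 0 and 10.2 CPM in VAT. The SAT nuclei went against the class name, with 250 to 651 CPM of the mesothelial list and 2002 to 3184 CPM of the epithelial list, while the VAT nuclei held 5030 and 3403 CPM and 245 and 584 CPM. In clusters made without batch correction the highest mean of Cx3cl1 was in epithelial nuclei. Cxcl1 was also highest in this class, at 18.0 ± 27.5 CPM, and in mature dendritic cells without batch correction.

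Lymphoid and conventional dendritic cell nuclei held most of the signalling receptors. Cxcr6, a receptor of tissue-resident T cells, was at 276 ± 253 CPM in T cell nuclei (n = 5), with 83.6% of its UMIs, and Ccr6, the receptor of Ccl20, was at 109 ± 103 CPM there and 76.2 ± 58.7 CPM in B cell nuclei. Cxcr5 and Cxcr4, receptors that place cells in lymphoid follicles and niches, were highest in B cell nuclei, at 161 ± 52.9 and 214 ± 45.4 CPM, and mature dendritic cells had Cxcr4 at 176 ± 75.8 CPM. Xcr1, the receptor of cross-presenting dendritic cells, was at 145 ± 32.7 CPM in conventional dendritic cells and at most 4.23 CPM as a mean in the other named classes, and its ligand Xcl1 was at 211 and 240 CPM in NK cell nuclei of the 2 libraries with enough of them. Ccr2 was at 433 ± 193 CPM in conventional dendritic cells and 261 ± 98.5 CPM in macrophages. Cxcl9, another ligand of Cxcr3, was at 145 ± 85.6 CPM in conventional dendritic cells. Ccr9, a gut-homing receptor, was at 562 ± 34.1 CPM in plasmacytoid dendritic cell nuclei (n = 2), against 128 ± 70.9 CPM in conventional dendritic cells. Ccr4 was at 12.01 ± 4.94 CPM in T cells, and Cxcr3 at 107 ± 43.0 CPM in NK cells and 50.2 ± 29.7 CPM in T cells. Ccl3, Ccl4 and Ccl28 were also highest in NK cells, at 21.1 ± 29.9, 25.5 ± 11.8 and 9.93 ± 2.09 CPM. Ccl25 and Cxcl11 had their highest mean in skeletal muscle nuclei, which rested on 14 of 3168 and 1 of 51 UMIs, and Ccl25, the ligand of Ccr9, was at 79.0 ± 23.2 CPM in adipocytes, the next class. The Ccl25 model spans 166 kb and overlaps Elavl1 on the other strand.

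**Figure D1:**
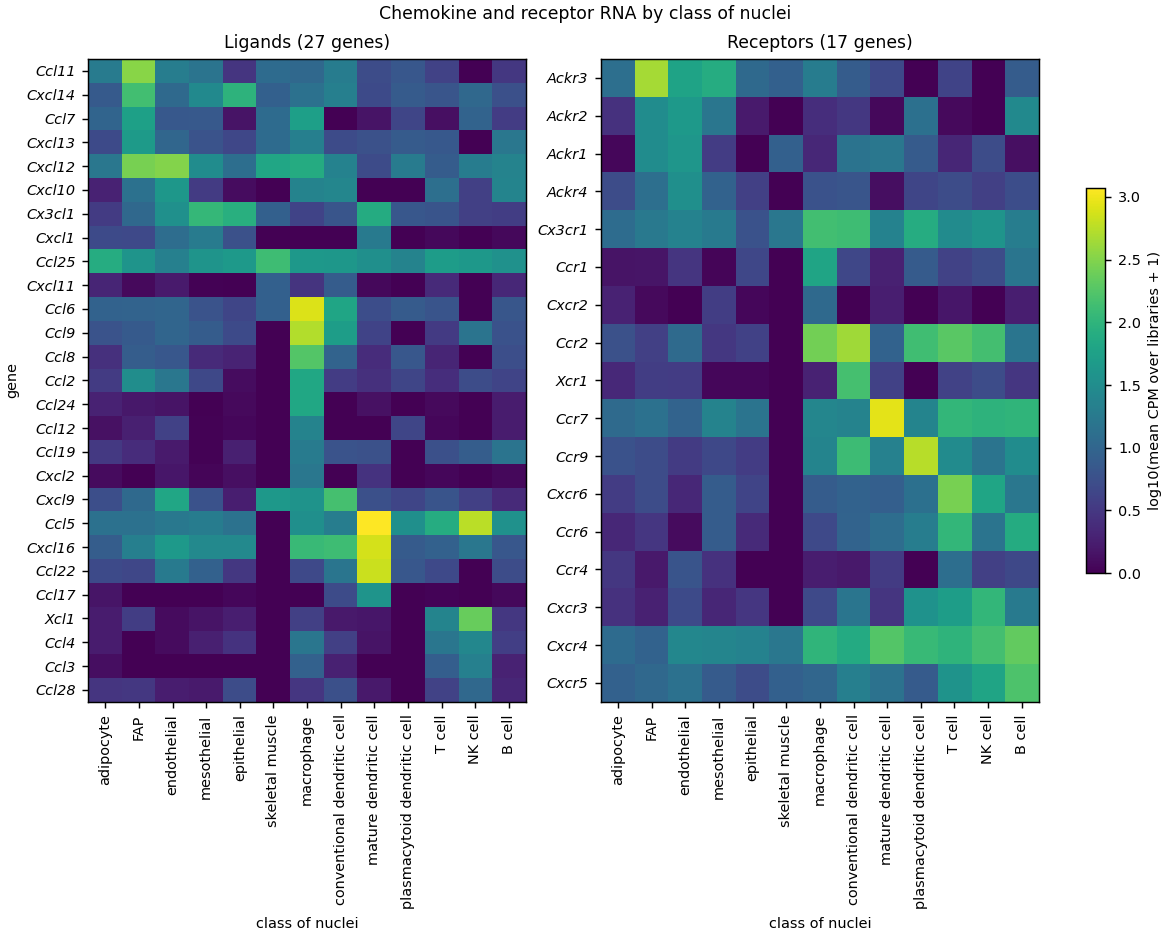
Level of the 44 described members (rows, ligands left and receptors right) in 13 classes of nuclei (columns), as log10 of the mean CPM over libraries plus 1. Ccl6, Ccl8, Ccl9 and Ccl24 are brightest in the macrophage column, Ccl5, Ccl17, Ccl22, Cxcl16 and Ccr7 in the mature dendritic cell column, and Ccl11 and Ackr3 in the FAP column.

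The high levels of 5 ligands lay in clusters that the marker lists left unnamed. Cluster 22, led by Pcdh15, Csmd1 and Ccl21a, held 25 to 126 nuclei per library. Cxcl13 and Ccl19 themselves were also among its leading genes, as was Cr2, a gene of the lymph node list. The cluster had 80.4% of all Cxcl13 UMIs and 81.7% of all Ccl19 UMIs. Cxcl13, the ligand that draws Cxcr5-bearing cells into follicles, was there at 3310 and 1798 CPM in young SAT, 1525 and 2464 CPM in old SAT, and 0 and 54.3 CPM in VAT. Ccl19, the ligand of Ccr7, was at 935 and 1399 CPM, 1220 and 948 CPM, and 208 and 149 CPM in the same order. For both ligands each VAT library was below each SAT library. The cluster held 25 and 81 VAT nuclei, whereas the cluster with the same leading genes made without batch correction held 1 and 14, and 80, 125, 39 and 29 SAT nuclei. Cxcl12 was at 928 and 1495 CPM, 966 and 2190 CPM, and 682 and 231 CPM, and Ccl2 at 91.6 and 177 CPM, 356 and 442 CPM, and 89.0 and 13.6 CPM. Cluster 14, whose leading genes include Myh11, Acta2 and Kcnq5 besides Cxcl14 itself, had 53.7% of all UMIs of Cxcl14, a chemokine made by many stromal and epithelial cells. Its level there was 1918 and 1410 CPM in young SAT, 1658 and 2730 CPM in old SAT, and 0 and 8.60 CPM in VAT. With 25 and 203 nuclei in the VAT libraries, the count was 0 of 44851 UMIs in replicate 1 and 3 of 348719 UMIs in replicate 2. Without batch correction, the cluster led by Cxcl14, Kcnq5 and Myh11 held 97, 147, 59 and 104 SAT nuclei and 0 and 0 VAT nuclei, and it was named smooth muscle or pericyte. No test was made in the unnamed clusters.

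**Figure D2:**
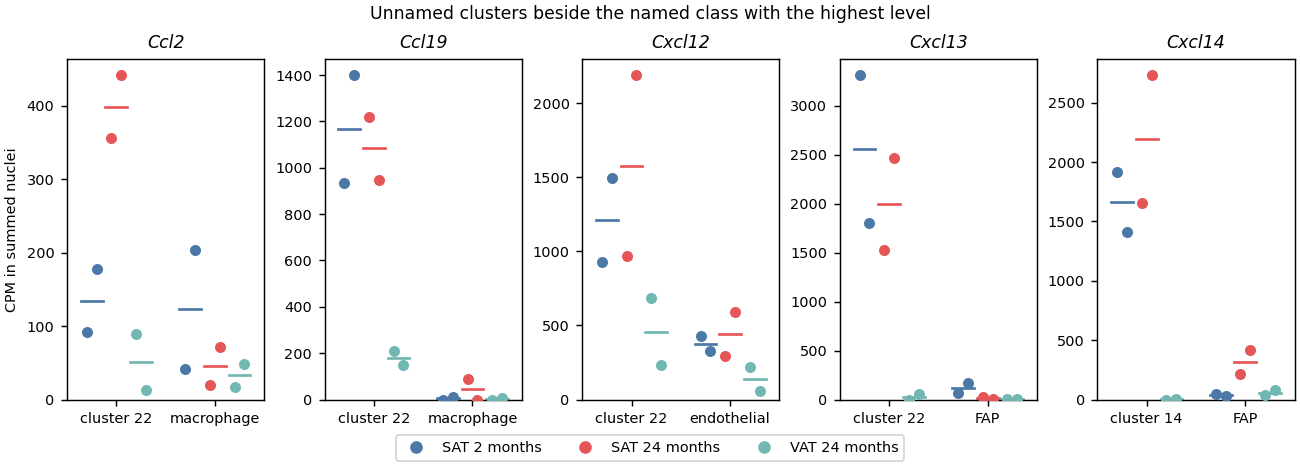
CPM of 5 ligands in the unnamed cluster with the highest level and in the named class with the highest level, with 1 point per library and a line at the mean of each group. For Cxcl13 and Cxcl14 the 4 SAT libraries lie between 1410 and 3310 CPM in the unnamed cluster and the VAT libraries at 54.3 CPM or below.

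At 24 months, SAT T cell nuclei as a whole held more Ccr2, Cxcr6 and Ccr6 and less Ccr7 and Ccr9 than at 2 months. Adipocyte nuclei held more Ccl11 and Ccl7 and less of 6 members. Mature dendritic cell nuclei held less Ccl5, and B cell nuclei more Ackr2. Over 12 classes, 212 pairs of a member and a class were tested, which covered 46 members and left out Ccl20 and Cxcl5. Of these pairs, 16 passed (edgeR quasi-likelihood test on summed counts, Benjamini-Hochberg adjusted p under 0.05), 6 higher and 10 lower at 24 months, and they came from 13 members, 5 ligands and 8 receptors. The share of all gene and class pairs that passed was 3.61%, and of the members' pairs it was 7.55%. The libraries of the groups did not overlap for 99 of the 212 pairs (46.7%), below the 50% of all gene and class pairs for which they did not. In 8 classes no member passed with edgeR, 24 of their 139 pairs had an unadjusted p under 0.05, against 10.8% of all pairs in these classes, and DESeq2 called 2, against 0.718% of all pairs in them. Over the 12 classes, 53 pairs had an unadjusted p under 0.05, against 14.5% of all pairs. DESeq2 called 4 pairs in adipocytes, 5 in T cells and 1 each in FAP, immune and mature dendritic cell nuclei. These came from 9 members, and DESeq2 called 2.21% of all gene and class pairs. In the 8 classes where no member passed with edgeR, the share of all genes that passed was 0% over all nuclei, immune nuclei, FAPs and mesothelial nuclei. It was 0.0152% in endothelial, 0.119% in macrophage, 0.636% in conventional dendritic cell and 5.04% in epithelial nuclei.

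**Figure D3:**
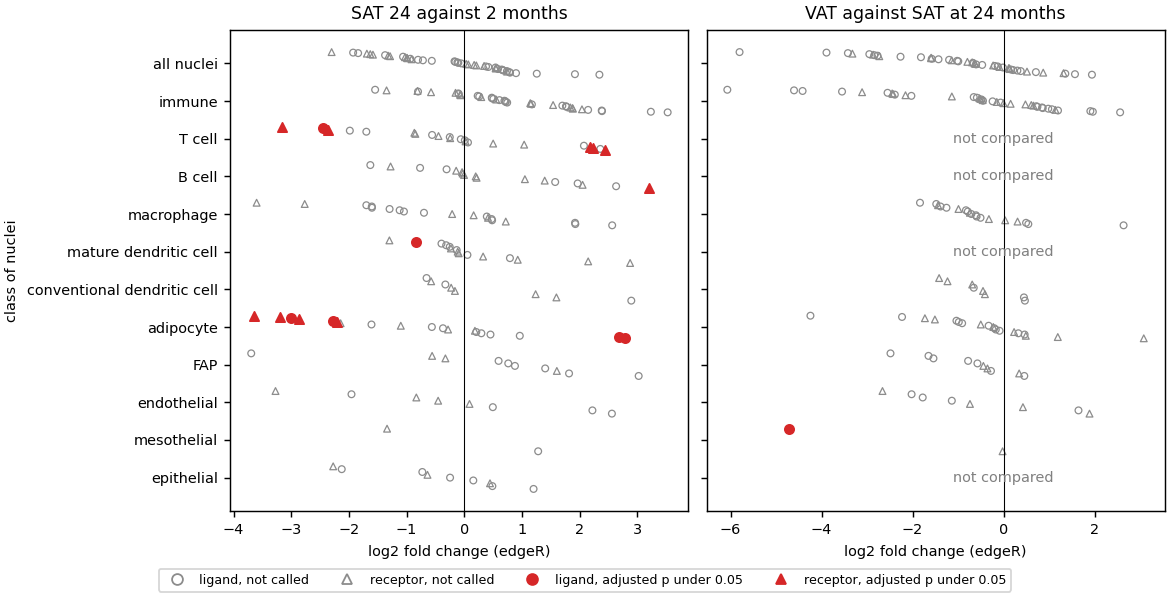
Fitted log2 fold change (edgeR) of each tested member by class, for SAT at 24 against 2 months (left) and VAT against SAT at 24 months (right), with circles for ligands, triangles for receptors and filled red symbols for an adjusted p under 0.05. There are 16 filled symbols on the left, in T cells, B cells, mature dendritic cells and adipocytes, and 1 on the right, in the class named mesothelial.

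In T cell nuclei 6 of 22 tested members passed, 3 higher and 3 lower, where 13.3% of all genes passed, and the median log2 fold change was -0.15 for the members and -0.04 for all genes. Ccr2, which brings monocytes and effector T cells into tissue, was at 70.4 and 63.5 CPM at 2 months and 319 and 398 CPM at 24 months. That was 5.44-fold higher (log2 fold change 2.44 ± 0.20, SE, edgeR adjusted p = 5.98e-09). Cxcr6 was at 112 and 106 CPM and then 342 and 693 CPM, 4.70-fold higher (adjusted p = 3.34e-07). The levels of Ccr6, a receptor of type 17 T cells, were 61.1 and 40.5 CPM against 275 and 141 CPM, 4.54-fold higher (adjusted p = 1.42e-06). For all 3 receptors both older libraries lay above both younger ones.

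Ccr7, which naive and central memory T cells use to enter lymph nodes, went the other way in T cells. It was at 186 and 284 CPM at 2 months and 27.6 and 20.1 CPM at 24 months, 8.92-fold lower (edgeR adjusted p = 5.45e-08). Ccr9 was at 37.2 and 72.6 CPM against 9.21 and 13.4 CPM, 5.15-fold lower (adjusted p = 0.000821), and its call was lost without SAT 2 months replicate 2 and without SAT 24 months replicate 1 (adjusted p = 0.121 and 0.208). Cxcl16 passed at an adjusted p of 0.0491 on 2 and 1 UMIs at 24 months, against 25 and 66 UMIs, and the ratio of UMIs pooled over the 2 libraries of each age, per pooled total, was 6.00 with a 95% counting interval of 1.99 to 29.6. It lost the call under 6 of 10 alternatives. Ccr2, Cxcr6, Ccr6 and Ccr7 kept theirs under all 12 alternatives.

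T cell nuclei were 31.1% and 41.6% of kept nuclei in SAT at 2 months and 21.5% and 4.25% at 24 months. The lymph node list summed to 440 and 296 CPM in the same young libraries and to 81.3 and 24.0 CPM in the old ones. Its part in the T cell differences was not tested. The make-up of the T cell nuclei also differed between the ages. Nuclei of a gamma-delta type sub-cluster, named from genes such as Il23r and Blk, were 10.7% and 8.37% of T cell nuclei at 2 months and 51.6% and 57.5% at 24 months. Without batch correction the 2 sub-clusters so named held 5.38% and 2.59% and then 31.6% and 34.8%, and with an unnamed one nearest to the same list 10.5% and 6.65% and then 78.4% and 80.4%. The receptors were therefore fitted apart in these nuclei and in the other T cell nuclei, a step chosen after the first result was seen. In gamma-delta type nuclei, where 2.09% of all genes passed, Ccr2 was at 416 and 476 CPM at 2 months and 409 and 501 CPM at 24 months (log2 fold change 0.01 ± 0.24, adjusted p = 0.992). Cxcr6 and Ccr6 had log2 fold changes of 0.21 ± 0.24 and -0.23 ± 0.27 there, and neither passed (adjusted p = 0.830 and 0.834). Only Ccr7 passed of the 11 members tested in them, at 29.96 and 96.8 CPM against 8.56 and 5.57 CPM (adjusted p = 0.00968), and that call was lost in the 3 uncorrected sub-clusters (adjusted p = 0.108).

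In the other T cell nuclei, where 7.77% of all genes passed, Ccr2 was at 22.6 and 16.6 CPM at 2 months and 215 and 243 CPM at 24 months (log2 fold change 3.52 ± 0.29, adjusted p = 1.04e-16). Cxcr6 was at 59.4 and 60.1 CPM against 239 and 587 CPM (2.59 ± 0.26 on the log2 scale), and Ccr6 at 24.4 and 17.2 CPM against 254 and 101 CPM (3.29 ± 0.31). Ccr7 fell by 2.43 on the log2 scale (adjusted p = 1.73e-08), from 207 and 305 CPM to 49.9 and 41.9 CPM. Ccr9 fell by 1.73 (adjusted p = 0.0246). The make-up of these nuclei differed with age as well, with CD8 T cells at 31.9% and 33.1% of them at 2 months and 15.8% and 17.6% at 24 months. Their largest sub-cluster, led by Cd4 and St8sia6, held 36.6% and 40.2% of them at 2 months and 49.0% and 47.1% at 24 months. In nuclei this was 468 and 885 and then 127 and 40. Without batch correction the sub-cluster led by Igfbp4 and Cd4 held 476 and 917 of 1469 and 2513 T cell nuclei at 2 months. At 24 months it held 9 and 2 of 532 and 204. The part of this make-up in the age differences was not tested. The ligands Cxcl10 and Ccl4 passed as well (adjusted p = 0.0106 and 0.0153), on 15 and 0 UMIs and on 4 and 6 UMIs at 24 months, and for Cxcl10 the libraries overlapped.

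The age differences of the T cell populations were themselves compared, and 1.87% of all genes passed that test. Gamma-delta type minus other T cells, the difference was -3.53 ± 0.33 on the log2 scale for Ccr2 (edgeR adjusted p = 9.58e-24), -3.41 ± 0.37 for Ccr6 (6.62e-17) and -2.41 ± 0.28 for Cxcr6 (6.38e-15). These 3 differences passed under each alternative run, which were leaving out each SAT library in turn and both splits made without batch correction. Their sizes moved most with the 3 uncorrected sub-clusters, to -3.10 ± 0.42 for Ccr2 (adjusted p = 2.59e-10), -2.04 ± 0.52 for Ccr6 (0.0148) and -1.51 ± 0.37 for Cxcr6 (0.00915). With them Ccr2 in the other T cell nuclei was at 22.9 and 20.4 CPM at 2 months and 151 and 176 CPM at 24 months. Ccl5 passed too, at -2.42 ± 0.64 (0.0124), but not with the 2 uncorrected sub-clusters alone (-0.04 ± 1.14, adjusted p = 0.994) nor without SAT 2 months replicate 2 (0.634) or either SAT 24 months library (0.414 and 0.164). Its own age difference was 0.81 ± 0.31 in the other T cells and -1.52 ± 0.70 in the gamma-delta type, and neither passed alone. Ccr7 fell in both, with a difference of -0.54 ± 0.75 (adjusted p = 0.907). The 6 gamma-delta type marker genes that the files list summed to 71.8 and 71.1 CPM in the other T cell nuclei at 2 months and to 442 and 403 CPM at 24 months, against 2417 to 3627 CPM in the gamma-delta type nuclei of SAT, and their part in the rise in the other T cells was not tested.

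**Figure D4:**
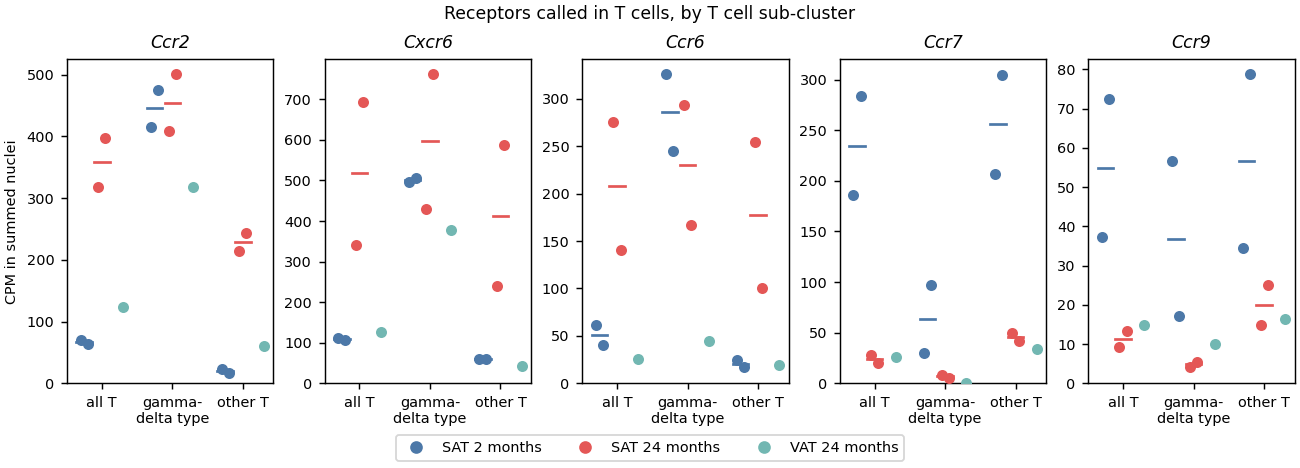
CPM of 5 receptors in all T cell nuclei, in the gamma-delta type sub-cluster and in the other T cell nuclei, with 1 point per library, a line at the mean of each SAT group, and VAT shown by replicate 2 alone. Ccr2 lies between 409 and 501 CPM in the gamma-delta type at both ages of SAT and moves from 22.6 and 16.6 to 215 and 243 CPM in the other T cells, while Ccr7 is lower at 24 months in both.

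The further T cell changes concern the machinery behind the receptors. Of 38 tested genes from lists of other ligands and receptors, G proteins and effectors, receptor shut-off, and migration and adhesion, 14 passed in T cells, 7 in each direction. Gng2, a G protein gamma subunit, rose by 1.51 ± 0.20 on the log2 scale (adjusted p = 5.35e-06). Grk3 and Arrb1, a kinase and an arrestin that switch receptors off, rose by 2.10 ± 0.29 and 1.21 ± 0.22 (1.15e-05 and 0.000314), and Prkcb, a protein kinase C, fell by 1.596 (2.80e-05). The 13.3% of all genes that passed in T cells is the background for these counts too. The median over the 38 genes was 0.04. With T cell nuclei fitted apart, 0 of 35 such genes passed in the gamma-delta type, where 2.09% of all genes did, and 9 of 37 passed in the other T cells, 4 higher and 5 lower, where 7.77% did.

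In mature dendritic cell nuclei 1 of 15 tested members passed, where 1.47% of all genes did. Ccl5 was at 1719 and 1782 CPM at 2 months and 842 and 898 CPM at 24 months, 1.79-fold lower as fitted (log2 fold change -0.84 ± 0.19, edgeR adjusted p = 0.00643). The pairs of libraries lay close together within each age. NK and T cells also make Ccl5, and the T cell marker list summed to 633 and 867 CPM in these nuclei at 2 months and 378 and 209 CPM at 24 months, a part in the result that was not tested. The call was lost without either SAT 2 months library and without SAT 24 months replicate 2. Ccr7 and Ccl22, which these nuclei hold at their highest level, had log2 fold changes of -0.10 ± 0.20 and -0.13 ± 0.22, and neither passed (adjusted p = 0.924 and 0.902).

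In B cell nuclei 1 of 17 tested members passed, where 2.43% of all genes did. Ackr2, which clears inflammatory CC chemokines, was at 4.50 and 6.12 CPM at 2 months and 47.5 and 48.2 CPM at 24 months (log2 fold change 3.20 ± 0.75, edgeR adjusted p = 0.0288). The make-up of the B cell nuclei differed with age. Their sub-cluster led by Ighm and Ighg2b held 176 of 707 and 296 of 818 nuclei at 2 months and 27 of 167 and 9 of 76 at 24 months. Its part in the Ackr2 difference was not tested. Among the named classes endothelial nuclei had the highest mean of Ackr2, and the endothelial list summed in the B cell nuclei to 748 and 728 CPM at 2 months and 704 and 659 CPM at 24 months. The Ackr2 levels are 5, 7, 12 and 6 UMIs, and the call was lost with DESeq2 (adjusted p = 0.0965) and without either SAT 2 months library (0.526 and 0.521). Among the pathway genes, Grk5, another receptor kinase, rose by 2.66 ± 0.36 in B cells (adjusted p = 0.000456), 1 of 3 that passed of 34 tested. In mature dendritic cells 2 of 34 passed, 1 in each direction.

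In adipocyte nuclei 8 of 19 tested members passed, 2 higher and 6 lower, where 13.9% of all genes passed, and the median log2 fold change was -0.56 for the members and 0.00 for all genes. Ccl11 was at 3.75 and 10.1 CPM at 2 months and 31.8 and 39.1 CPM at 24 months, 6.43-fold higher (edgeR adjusted p = 0.0161). Ccl7 was at 0.536 and 5.60 CPM against 15.2 and 15.03 CPM, 6.92-fold higher (adjusted p = 0.0324), with 1 and 5 UMIs in the younger libraries. Both are attractants of eosinophils and monocytes, and both were also found in FAPs. The FAP marker list summed to 417 and 435 CPM in adipocyte nuclei at 2 months and to 252 and 921 CPM at 24 months, and its part in these differences was not tested.

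The 6 members that fell in adipocytes were Ccr7, Ccl5, Cxcr4, Ccr9, Cxcl13 and Ackr4. Ccr7 was at 18.2 and 35.9 CPM and then 2.77 and 3.44 CPM (7.31-fold lower, edgeR adjusted p = 0.00913), and Ccl5 at 19.3 and 44.8 CPM and then 5.54 and 5.79 CPM (4.87-fold lower, adjusted p = 0.0179). Levels of Cxcr4 were 16.6 and 34.7 CPM against 6.23 and 3.98 CPM, of Ccr9 9.65 and 14.6 CPM against 2.08 and 0.724 CPM, and of Cxcl13 13.9 and 6.72 CPM against 1.38 and 1.09 CPM (adjusted p = 0.0270, 0.0262 and 0.0290). In each case both younger libraries were above both older ones. The immune marker list summed to 735 and 1368 CPM in adipocyte nuclei at 2 months and 246 and 210 CPM at 24 months, with none of its 9 genes at 0, and the T cell list to 321 and 584 CPM and then 68.5 and 39.3 CPM. The B cell list went the other way, from 1021 and 1141 CPM to 4600 and 3353 CPM, through Ebf1, which adipocytes also express (772 and 775 CPM, then 4526 and 3318 CPM), while its other 7 genes summed to 249 and 365 CPM and then 74.0 and 34.4 CPM. Their part in these results was not tested.

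Ackr4, which clears Ccl19 and Ccl25, was at 6.43 and 10.1 CPM in adipocytes at 2 months, on 12 and 9 UMIs, and 0 and 0.724 CPM at 24 months, on 0 and 4 UMIs (log2 fold change -3.65 ± 0.92, edgeR adjusted p = 0.0229). Leaving out any 1 of the 4 SAT libraries ended that call (adjusted p = 0.0616 to 0.202). Each of the other 7 adipocyte calls was lost without at least 1 SAT library. That of Cxcl13, on 2 and 6 UMIs at 24 months, was lost without SAT 2 months replicate 2 and without either SAT 24 months library. Without SAT 2 months replicate 1 it was not tested. DESeq2, by which 9.79% of all genes passed, called 4 of the 8 members, Ccl11, Ccl7, Ccr7 and Ccl5, did not call Ccr9 and Cxcr4 (adjusted p = 0.0922 and 0.0763), and gave no adjusted p for Cxcl13 and Ackr4. Ccl25, which adipocytes hold at 68.6 to 109 CPM in SAT, had a log2 fold change of 0.30 ± 0.36 and did not pass. Of 35 pathway genes tested in adipocytes, 19 passed, 4 higher and 15 lower, beside the 13.9% of all genes. Gnai1 and Grk5 rose by 2.58 ± 0.28 and 2.13 ± 0.27 (adjusted p = 0.000213 and 0.000502), Rgs2, which shortens G protein signals, fell by 4.08 (9.37e-05), and the leukocyte integrin subunit Itgb2 fell by 3.25 (0.00286). Of the 15 that fell, 9 were from the migration and adhesion list, in the nuclei whose immune marker sum is given above, and the part of that in these results was not tested.

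**Figure D5:**
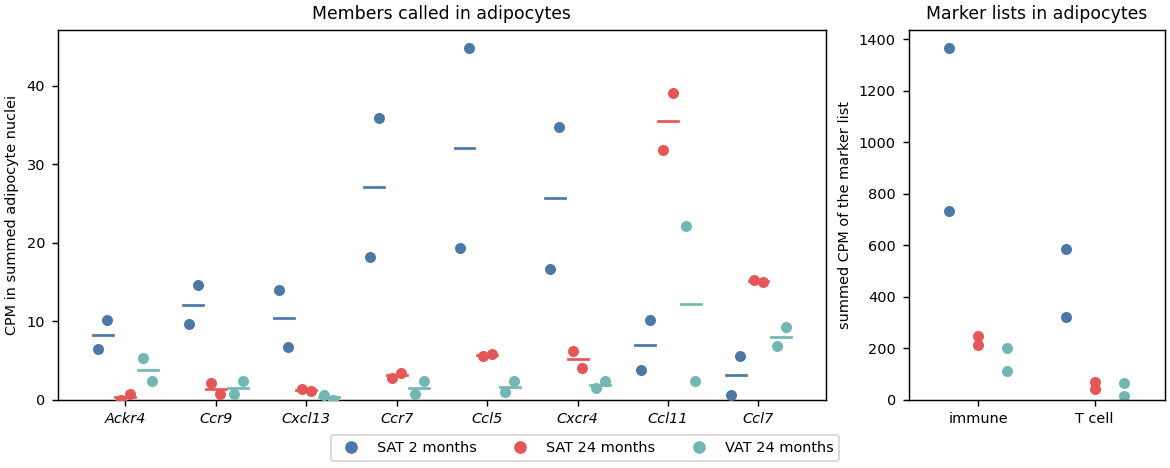
Left, CPM of the 8 members that passed in adipocyte nuclei, with 1 point per library and a line at the mean of each group. Right, the summed CPM of the immune and T cell marker lists in the same nuclei, at 735 and 1368 CPM and 321 and 584 CPM in young SAT and at or below 246 and 68.5 CPM in old SAT.

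A further 33 pairs did not overlap between the ages and had an unadjusted p under 0.05 without passing, 17 higher and 16 lower at 24 months. The share of all pairs that met both conditions was not counted. The sums of all nuclei and of immune nuclei hold nuclei of other classes, so the same nuclei can enter several pairs. The 10 of smallest p follow. In FAPs, Cxcl14 was at 46.1 and 32.9 CPM at 2 months and 211 and 414 CPM at 24 months (log2 fold change 3.02 ± 0.55, edgeR adjusted p = 0.200), and DESeq2 called it (adjusted p = 0.0135), with 0.496% of all genes. The make-up of the FAPs differed with age. Their sub-cluster led by Thsd7a and Sgip1 held 41 of 173 and 16 of 163 nuclei at 2 months and 18 of 54 and 75 of 186 at 24 months. Its part in the FAP values was not tested. Cxcl13 in FAPs was at 70.7 and 165 CPM and then 24.9 and 3.45 CPM, on 2 and 1 UMIs, with a ratio of pooled UMIs per total of 14.6 and a 95% counting interval of 4.82 to 72.4 (adjusted p = 0.266). Both Cxcl14 and Cxcl13 were far higher in the unnamed clusters. The immune list summed in FAP nuclei to 169 to 1120 CPM over the 6 libraries, and its part in the Cxcl13 values was not tested. In macrophages, Cxcl12 was at 28.1 and 30.5 CPM against 151 and 176 CPM (2.56 ± 0.67, adjusted p = 0.147). The macrophage sub-cluster led by Mrc1, Retnla and F13a1 held 48 of 152 and 56 of 227 nuclei at 2 months and 25 of 56 and 137 of 220 at 24 months. Its part in the Cxcl12 values was not tested.

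Ccr2 was among these pairs in 3 immune units. It was at 295 and 256 CPM and then 420 and 788 CPM in conventional dendritic cells (adjusted p = 0.167), at 3.01 and 2.28 CPM and then 9.55 and 27.0 CPM in mature dendritic cells (0.156), and at 72.2 and 65.2 CPM and then 185 and 287 CPM over all immune nuclei (0.380). In the last unit a change in which immune nuclei were caught cannot be told apart from a change within them. Conventional dendritic cells differed in make-up too. Their sub-cluster led by Wdfy4, Plbd1 and Clec9a held 47 of 87 and 92 of 156 nuclei at 2 months and 14 of 39 and 22 of 57 at 24 months. Its part in the values of that class was not tested. Cx3cr1 was at 56.7 and 99.5 CPM against 171 and 281 CPM in conventional dendritic cells (adjusted p = 0.165), and Ackr1 at 12.03 and 4.55 CPM against 21.0 and 40.5 CPM in mature dendritic cells (0.0961). Ccr7 was lower at 24 months in 2 more classes, at 134 and 182 CPM against 59.4 and 64.3 CPM in B cells (adjusted p = 0.0979) and 13.3 and 36.4 CPM against 1.79 and 6.998 CPM in epithelial nuclei (0.0737). None of these passed with edgeR, and DESeq2 called Ccr2 over immune nuclei (adjusted p = 0.0406), where it called 0.757% of all genes. The T cell marker list summed in the B cell nuclei to 1675 and 2723 CPM at 2 months and 637 and 209 CPM at 24 months. Epithelial nuclei held 208 and 310 CPM and then 50.2 and 47.0 CPM of that list, and 549 and 797 CPM and then 194 and 166 CPM of the immune list. The part of these in the Ccr7 values was not tested. Epithelial nuclei, where 5.04% of all genes passed, had 6 of 36 pathway genes pass, led by Adcy7, an adenylyl cyclase, which fell by 3.55 on the log2 scale (adjusted p = 0.00122). Of the 5 that fell, 4 were from the migration and adhesion list, and the part of the immune list in this was not tested.

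Between the depots at 24 months, 1 pair passed, Cx3cl1 in the class named mesothelial, where it was lower in VAT. The SAT nuclei of that class held more of the epithelial than of the mesothelial marker list, and the VAT nuclei the reverse. Over 8 classes 149 pairs and 45 members were tested, without Ccl20, Cxcl5 and Ccr8, and the pair that passed (edgeR, adjusted p under 0.05) is 0.671% of them, where 0.548% of all gene and class pairs did. The groups did not overlap for 51 pairs (34.2%), near the 32.7% of all pairs, and 37 had an unadjusted p under 0.05, as did 8.18% of all pairs. DESeq2 called 9 members, with 8 pairs in the sum of all nuclei, 4 over immune nuclei and 1 in the class named mesothelial. In the sum of all nuclei edgeR called 0 of 45, 12 were under an unadjusted p of 0.05 and 0.0138% of all genes passed. By DESeq2, 2.6% of all genes passed over all nuclei, 1.66% over immune nuclei and 1.4% of all gene and class pairs. In T cell, B cell and mature dendritic cell nuclei the depots could not be compared, since VAT replicate 1 held too few of them.

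Cx3cl1, which is made as a membrane-bound adhesion molecule and shed as a ligand of Cx3cr1, was at 156 and 289 CPM in the SAT nuclei of this class and 0 and 10.2 CPM in the VAT ones, 26.2-fold lower (log2 fold change -4.71 ± 0.82, edgeR adjusted p = 0.0146). The background in this class was 8.51%. There were 45 and 98 SAT nuclei, with 250 and 651 CPM of the mesothelial and 3184 and 3085 CPM of the epithelial list, and 234 and 1566 VAT nuclei. The class thus differed in its defining markers between the depots, and the part of that in the Cx3cl1 difference was not tested. Without batch correction the 3 mesothelial clusters held 2 and 6 SAT nuclei of this age, too few for the comparison to be made. Epithelial nuclei of SAT at 24 months held Cx3cl1 at 80.7 and 150 CPM, and the unnamed cluster 18, led by Itprid1, Gpc6 and Csn3, held it at 216 ± 49.6 CPM over the 4 SAT libraries. The call was lost in a fit of the 4 libraries alone and without either SAT library (adjusted p up to 0.222). Of 14 pathway genes tested, Arrb1 passed in this class, at -5.99 ± 0.62 (adjusted p = 0.00231).

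Another 34 depot pairs did not overlap and had an unadjusted p under 0.05 without passing, 31 lower and 3 higher in VAT. The share of all pairs that met both conditions was not counted here either. The same nuclei can again enter several pairs, so the 34 are not separate results. The 10 of smallest p, all lower in VAT, follow. Of all genes, 0.139% passed in adipocytes and 0.079% in macrophages, and 0% in FAPs and over immune nuclei. Over all nuclei, Ccl22 was at 42.8 and 42.7 CPM in SAT and 0.280 and 1.27 CPM in VAT (log2 fold change -5.80 ± 0.64, edgeR adjusted p = 0.116), and over immune nuclei at 116 and 337 CPM against 0 and 4.85 CPM (adjusted p = 0.130). Ccl17 over all nuclei was at 2.28 and 3.57 CPM against 0.0933 and 0.294 CPM (0.310). Mature dendritic cell nuclei, where both ligands were highest, numbered 196 and 188 in SAT at 24 months and 1 and 37 in VAT. Fewer nuclei of a type and less RNA per nucleus cannot be told apart in such sums.

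Cxcl14 was lower in VAT over all nuclei, at 52.3 and 89.7 CPM against 4.95 and 8.62 CPM (adjusted p = 0.134), in FAPs, at 211 and 414 CPM against 35.2 and 81.5 CPM (0.280), and in adipocytes, at 5.54 and 13.4 CPM against 0.506 and 0 CPM (0.135). Cxcl16 over immune nuclei was at 179 and 304 CPM against 36.8 and 57.1 CPM (0.142). Cx3cl1 over immune nuclei was at 15.5 and 43.6 CPM against 0 and 1.62 CPM, on 0 and 3 UMIs, with a ratio of pooled UMIs per total of 21.0 and a 95% counting interval of 6.98 to 104 (0.228). Over all nuclei, Cxcl13 was at 30.02 and 12.2 CPM against 3.17 and 2.45 CPM (0.299), and Ccr2 at 69.2 and 41.7 CPM against 12.6 and 23.6 CPM (0.320). Without VAT replicate 1, 10 members passed in at least 1 class, and without VAT replicate 2, 6 did, where 3.21% and 1.81% of all pairs passed. The lone VAT library of these fits is assumed to vary like the SAT libraries, from which the spread comes.

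Ligands and receptors that bind each other were set side by side. Cxcr6 and Ccr2 rose in SAT T cells, while Cxcl16 had a log2 fold change of -0.40 ± 0.20 in mature dendritic cells (962 and 983 CPM against 609 and 709 CPM, adjusted p = 0.471) and Ccl2 one of -1.12 ± 0.70 in macrophages (42.2 and 204 CPM against 20.1 and 71.1 CPM, 0.519). Neither ligand passed. Ccr6 rose where its ligand Ccl20 had 7 UMIs in all. Ccr7 fell in T cells, and its ligand Ccl19 lay mainly in the unnamed cluster 22, as did Cxcl13, the ligand of the B cell receptor Cxcr5. Cxcr5 and Cxcr4 in B cells had log2 fold changes of -0.04 ± 0.39 and -0.03 ± 0.34 with age, and neither passed. Ackr3 and Cxcl12 were both found in FAPs and endothelial nuclei, with FAPs the top class for Ackr3 and endothelial nuclei the top class for Cxcl12. Ccr9 fell in T cells and adipocytes, where Ccl25 did not pass.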

How the data were processed

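Nuclei from the 6 libraries were sequenced with the Singleron GEXSCOPE kit, and the authors aligned the reads to GRCm39 with Celescope (version and gene annotation not given in the sources used here). The deposited matrices hold raw counts, the UMIs per gene and barcode, unfiltered beyond a floor of 500 UMIs per barcode. The barcodes per library equal the numbers loaded that the study states, and its filter was applied here (more than 500 genes and 1000 UMIs, less than 15% of UMIs mitochondrial), although the nuclei left differ from its stated numbers. How overlapping genes and strand were counted is not given.

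The 48 members and all gene lists were chosen with earlier results of these data known, and the rule that names clusters was adjusted after the clusters had been looked at. Nuclei were clustered without the members on 1000 variable genes and 30 principal components with a Harmony-type correction, a graph of 20 neighbours and Leiden resolution 2 (scanpy 1.11.5, leidenalg 0.10.2), with sub-clusters at resolution 1. A name needed at least 3 markers over 2-fold. Doublets were sought with Scrublet, whose own threshold marked at most 0.562% of a library and so did not work, and no doublet was removed in the results given. Sub-clusters led by genes of another class were left out of theirs (339 immune, 476 endothelial and 227 FAP nuclei) and stayed in the sum of all nuclei. Removing the highest 5% of scores was added as an alternative.

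The UMI counts of a class were summed within each library and tested with edgeR 4.0.16 in R 4.3.3 (TMM scaling, filterByExpr, quasi-likelihood F-test, two-sided), the 3 groups in 1 model, for classes with at least 20 nuclei in each library of both groups. Benjamini-Hochberg adjustment was over all genes tested in a class and comparison, with calls at an adjusted p under 0.05. The study's test per nucleus was not used, since nuclei are not replicates. Values per library are given for each member called, for up to 10 further pairs per comparison (groups apart, unadjusted p under 0.05, by smallest p), and class levels for members with at least 50 UMIs. Pathway genes are named by smallest p, at most 10 per comparison. Fits apart for T cell sub-clusters, with the library as a block in the test of their difference, were added after seeing the data. Simulated data with 200 genes changed 4-fold gave back 97% in adipocytes (12358 genes), 70.5% over immune nuclei (13794 genes) and 62.5% in macrophages (7032 genes) for the age comparison. The changed genes were drawn from those above the median level, and all genes had the same spread. Recovery of members on few UMIs was therefore not measured. Intervals cover counting error only. DESeq2 1.42.0, scaling by library size, no filter, the libraries of a comparison alone, a replicate block, doublet removal, clusters without correction and leaving out each library were alternatives.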

Additional observations from a re-analysis of the deposited data

Results flagged for a closer look

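In the unnamed clusters, which no comparison used, 5 ligands had a mean CPM over libraries above 2 times that of any named class. In cluster 22 Cxcl13 was at 1525 ± 1314 CPM, 33.3 times FAPs, and Ccl19 at 810 ± 519 CPM, 44.3 times macrophages (SD, n = 6 libraries). Cxcl12 was at 1082 ± 681 CPM there, 3.39 times endothelial nuclei, and Ccl2 at 195 ± 169 CPM, 2.90 times macrophages. Cxcl14 was at 1288 ± 1089 CPM in cluster 14, 9.41 times FAPs. For both clusters the smooth muscle or pericyte list came closest, with another list near it, so neither was named. These means are over SAT and VAT libraries, and few or no VAT nuclei lay in the matching clusters without batch correction.

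The age difference itself differed between T cell sub-clusters for 4 members, gamma-delta type minus other T cells on the log2 scale. It was -3.53 for Ccr2, -3.41 for Ccr6, -2.41 for Cxcr6 and -2.42 for Ccl5 (edgeR adjusted p = 9.58e-24, 6.62e-17, 6.38e-15 and 0.0124), with 2 residual degrees of freedom per gene before the spread was shared over genes. That of Ccl5 did not pass under every alternative run, as given above. The sub-clusters share libraries, and the comparison was chosen after the T cell result was seen. Groups of 2 libraries are too small to test for an outlying library.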

How the results depend on the processing

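The 13 members called with age became 25 with no filter on low counts (2.11% of all pairs passed, against 3.61%) and 7 to 13 when 1 library was left out (1.18% to 2.83%). The lowest count came without either SAT 2 months library (7 each, 7 and 6 of them shared with the 13). DESeq2 called 9, 8 of them shared (2.21%), and the other alternatives 11 to 15 (3.61% to 4.55%). Between the depots the 1 call (0.548% of all pairs) became 9 with DESeq2 (1.4%), 11 with no filter (1.3%), 0 in a fit of the 4 libraries alone (0.298%) and 0 to 10 when 1 library was left out (0.1% to 3.21%), and clusters without batch correction gave 1 call, of Cxcl14 in FAPs, with too few SAT mesothelial nuclei to test Cx3cl1. Leaving out 1 library leaves a lone library in its group, which is assumed to vary like the other groups. With every deposited barcode, the sum over all nuclei had 0 members called with age and 1 between depots, against 0 and 0. No named pair changed direction under any alternative run. DESeq2's missing adjusted p-values were left out of these counts. The counts are of members called in at least 1 class and the percentages of gene and class pairs, so they are in unlike units.

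With the replicate number as a block, 11 members were called with age, 10 of them shared, and 1 between depots, and the calls of Ackr2 in B cells, Cxcl16 in T cells and Cxcl13 in adipocytes were lost. Deviations of same-numbered libraries correlated at -0.27 (age) and -0.48 (depot) over all nuclei, -0.06 and -0.43 over immune nuclei and -0.09 and 0.09 in adipocytes, and with age at 0.03 in T cells and -0.12 in B cells. Young and old libraries are from different mice, and no source ties a number to a mouse. With the VAT numbers crossed in the block, an alternative chosen after seeing the data, 1 member was called between depots. Of the 44 described members, the class of highest level held for 44 with doublets removed in either way, for 35 without batch correction and for 35 to 42 when 1 library was left out. Without either SAT 2 months library, NK cell and plasmacytoid dendritic cell nuclei had too few libraries to be ranked, which lowered those 2 counts. Depth limits the low members most, since 4 had under 50 UMIs in all, and NK cell nuclei were too few for any comparison.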
